A study of Mus musculus with 8 samples.

Results

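The genes described here are 41 genes of fatty acid oxidation, ketone body metabolism and PPAR-alpha action, out of 55401 genes listed per kidney. They were chosen by name, from what the encoded proteins are known to do. Earlier results of these data were known when they were chosen. Every one of the 41 matched a single gene in the annotation and passed the filter on low counts, among 14326 genes tested.

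RNA-Seq was carried out on 8 whole kidneys, 4 of control and 4 of SIK mutant mice. The question was what renal gene expression becomes without the salt-inducible kinases, which parathyroid hormone inhibits. Per the labels, all 8 mice carried floxed alleles of *Sik1*, *Sik2* and *Sik3* (SIK1f/f;SIK2f/f,SIK3f/f), and the mutants in addition carried Six2-Cre, a Cre transgene active in nephron progenitors, so that kidney cells of other origins keep their alleles. The study's text gives the mutants with *Sik1* floxed on 1 allele only, so the group is called SIK mutant here. No treatment, age, sex, litter or batch is stated for these kidneys in the labels. Nothing there says that each kidney came from a separate mouse, so p-values measure the spread between these kidneys.

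Fatty acids are the main fuel of the proximal tubule. They are activated to acyl-CoA, carried into mitochondria as carnitine esters, and shortened by repeated cycles of dehydrogenation, hydration, dehydrogenation and thiolysis, while peroxisomes shorten very long and branched chains. PPAR-alpha, encoded by *Ppara*, is a nuclear receptor that fatty acids activate, and it drives many genes of these routes after pairing with a retinoid X receptor on the promoter.

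Depth was 10179648 to 10925100 expected counts per kidney. Values are given as CPM, each count relative to its library's size after TMM scaling, for comparisons between kidneys, and as TPM, which is corrected for transcript length, for comparisons between genes. *Sik3*, the targeted gene with the clearest difference, was at 58.6, 66.5, 65.7 and 61 CPM in controls and at 41.4, 39.7, 43.1 and 33.7 CPM in mutants (log2 difference -0.67 ± 0.09 SE, edgeR adjusted p = 0.0697). *Sik2* differed by -0.44 ± 0.21 and *Sik1* by 0.31 ± 0.09, and neither passed adjustment (adjusted p = 0.794 and 0.601). Controls 3 and 4 stood apart from the other 6 kidneys. They had 0 to 1 counts of each of 4 Y-linked genes, against 111 to 367 counts in the other 6, and *Xist*, transcribed from the inactive X chromosome, was at 260 and 298 CPM in them and at no more than 0.494 CPM in the others. All mutants had Y-linked reads, so this difference lay wholly inside the control group, and differences of the members by genotype are therefore given over all 8 kidneys and over the 6 with Y-linked reads. Defining markers of the proximal tubule (*Slc34a1*, *Lrp2*, *Cubn* and 5 others) summed to 13933.5 and 14123.7 CPM in controls 1 and 2, to 10442.4 and 10517.3 CPM in controls 3 and 4 and to 10404.5 to 12753.0 CPM in mutants. Of the 4 hepatocyte markers, *Ahsg* never passed 0.0962 CPM, *Apoa1* never passed 0.981 CPM and *Alb* was at 3.45 to 9.69 CPM, whereas *Ttr*, which encodes transthyretin, was at 92.6, 141, 19.8 and 45.1 CPM in controls and at 359 to 499 CPM in mutants.

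Transcript levels of the members spanned 3.39 to 536 TPM on average. The highest was *Acadm*, medium-chain acyl-CoA dehydrogenase, at 457 to 685 TPM across kidneys, followed by *Etfb*, a subunit of the flavoprotein that takes electrons from the dehydrogenases, at 381 to 505 TPM. These 2 ranges overlap. *Hadh*, short-chain 3-hydroxyacyl-CoA dehydrogenase, came next at 241 to 317 TPM, below every value of *Etfb*, and its range overlaps that of *Ehhadh*, the peroxisomal bifunctional enzyme, at 180 to 269 TPM. At the low end were *Ppara* itself at 3.79 to 9.17 TPM, *Pdk4*, a kinase that holds back pyruvate dehydrogenase, at 3.48 to 6.42 TPM, and *Fabp1*, a fatty acid-binding protein, at 1.1 to 5.99 TPM. The ranges of these last 3 genes overlap as well. *Fabp1* rests on 4 to 21 counts per kidney.

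**Figure D1:**
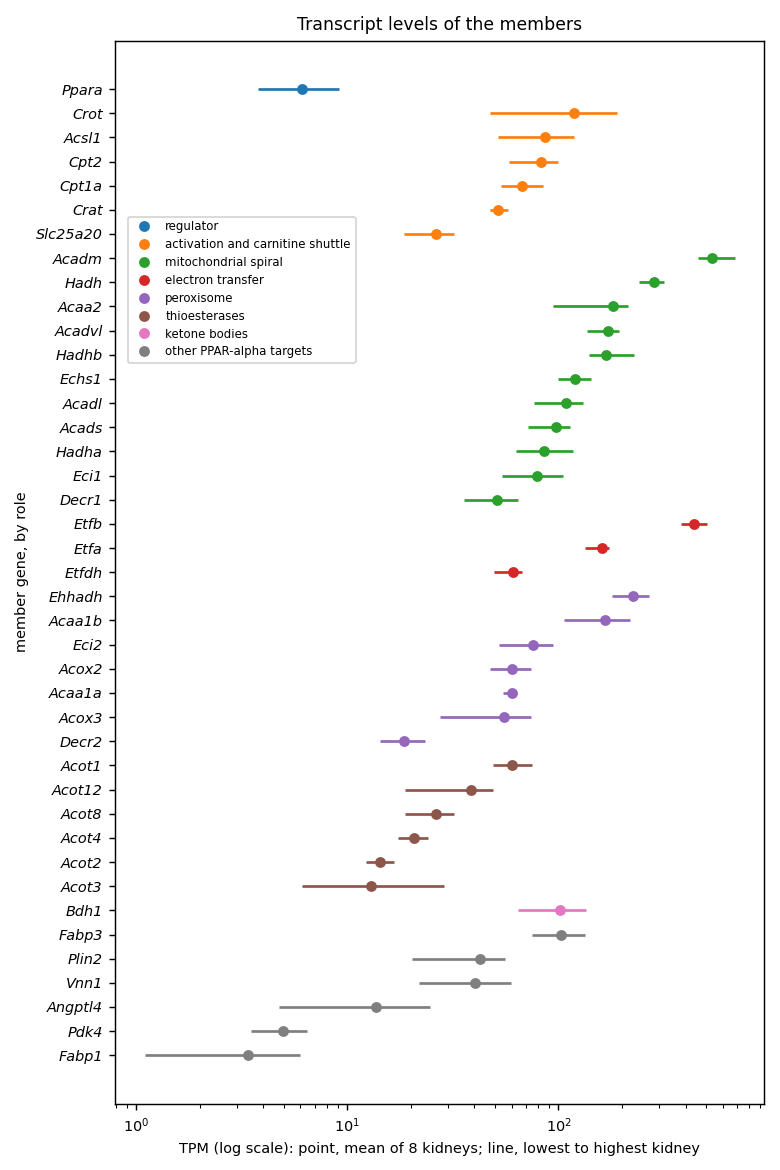
TPM of each member on a log scale, grouped and coloured by role, with a point for the mean of 8 kidneys and a line from the lowest to the highest kidney. *Acadm* and *Etfb* lie highest, at 536 and 438 TPM on average, and *Fabp1* lowest at 3.39 TPM.

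Promoter sequence was examined because several members differed together among the controls. Windows from 250 bases before to 50 bases after the start were taken from RefSeq (GRCm38.p6), 32851 in all. They cover 36 of the 41 members, with *Crat*, *Acaa2*, *Decr1*, *Angptl4* and *Vnn1* not among them. The core letters that PPAR-alpha and its partner read, AGGTCA on either strand, occurred in 16.3% of all windows and in windows of 9 members, namely *Acadm*, *Acadvl*, *Acot3*, *Acot4*, *Acot12*, *Cpt1a*, *Echs1*, *Fabp1* and *Plin2*. A looser pair, 2 copies of AGGNCA in tandem with 1 base between them, occurred in 0.381% of windows and among the members only in that of *Fabp1*, whereas the strict pair of AGGTCA copies was in 0.0396% of windows and in no member window. The cAMP response element TGACGTCA, the letters read by CREB, was in 1.79% of windows and in no member window. A set of 5 windows is shown, those of the 4 members with the lowest p by Y-linked reads and that of *Fabp1*. Letters in capitals mark AGGTCA or its reverse complement in the first 4 windows (there are none in *Acox3* and *Crot*) and the looser pair in *Fabp1*. *Acot3* has a second listed start nearby, whose window holds the same motif.
Acot3, chr12:84051894-84052193, plus strand: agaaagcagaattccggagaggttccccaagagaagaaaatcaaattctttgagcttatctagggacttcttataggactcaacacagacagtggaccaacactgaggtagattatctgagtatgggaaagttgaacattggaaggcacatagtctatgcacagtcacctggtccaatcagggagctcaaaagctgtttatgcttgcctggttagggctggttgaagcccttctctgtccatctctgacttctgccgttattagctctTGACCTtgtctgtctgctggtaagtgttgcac
Acot12, chr13:91741271-91741570, plus strand: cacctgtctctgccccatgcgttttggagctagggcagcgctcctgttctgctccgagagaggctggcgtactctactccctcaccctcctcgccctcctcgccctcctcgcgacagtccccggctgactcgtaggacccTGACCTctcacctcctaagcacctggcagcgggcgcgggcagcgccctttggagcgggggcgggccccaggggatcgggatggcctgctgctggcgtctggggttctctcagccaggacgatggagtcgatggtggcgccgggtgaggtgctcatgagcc
Acox3, chr5:35582784-35583083, plus strand: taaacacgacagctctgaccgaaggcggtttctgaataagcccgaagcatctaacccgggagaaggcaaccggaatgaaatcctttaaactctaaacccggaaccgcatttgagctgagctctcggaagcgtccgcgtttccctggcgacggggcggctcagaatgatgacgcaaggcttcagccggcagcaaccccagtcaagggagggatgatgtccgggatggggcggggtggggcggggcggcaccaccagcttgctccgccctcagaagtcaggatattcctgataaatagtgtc
Crot, chr5:8997097-8997396, minus strand: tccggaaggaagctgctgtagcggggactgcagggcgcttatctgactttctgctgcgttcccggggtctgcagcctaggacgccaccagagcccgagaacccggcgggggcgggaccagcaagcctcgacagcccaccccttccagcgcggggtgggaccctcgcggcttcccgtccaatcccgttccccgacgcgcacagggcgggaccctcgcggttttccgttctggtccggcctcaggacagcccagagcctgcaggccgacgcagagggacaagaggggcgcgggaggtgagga
Fabp1, chr6:71199629-71199928, plus strand: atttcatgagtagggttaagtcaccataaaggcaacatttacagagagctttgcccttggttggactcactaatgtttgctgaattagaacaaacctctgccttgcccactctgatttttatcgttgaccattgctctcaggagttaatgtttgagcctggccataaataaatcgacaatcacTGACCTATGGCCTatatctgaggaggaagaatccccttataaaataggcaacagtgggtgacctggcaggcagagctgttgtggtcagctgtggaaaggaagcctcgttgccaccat

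The first capital lies at position 18 from the start in *Acot3*, at -110 in *Acot12* and at -67 in *Fabp1*, with the start itself at 0. These matches describe letters in a fixed window and are not binding sites shown by any data here.

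Levels of the members varied between kidneys of the same genotype. Among controls the ratio of the highest to the lowest kidney had a median of 1.49 over the 41 members and ran from 1.09 in *Acot4*, a peroxisomal thioesterase, to 5.2 in *Angptl4*, a secreted inhibitor of lipoprotein lipase. Among mutants the median was 1.34, from 1.06 in *Acot4* to 2.97 in *Fabp1*. The ratio was 3.68 in controls against 1.56 in mutants for *Crot*, 3.46 against 1.89 for *Acot3* and 3.09 against 1.31 for *Acox3*. It was 1.22 against 1.18 for *Crat*, carnitine acetyltransferase. Control 4 was the lowest kidney for 21 members, and SIK mutant 4 was the highest kidney for 16 members and the highest mutant for 30. Relative to each gene's own mean, the median member was at -0.21 log2 in control 4, at 0.23 log2 in SIK mutant 4 and between -0.06 and 0.07 log2 in the other 6 kidneys. SIK mutant 4 also held the highest summed white fat markers, at 262 CPM, and its part in these levels was not tested.

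**Figure D2:**
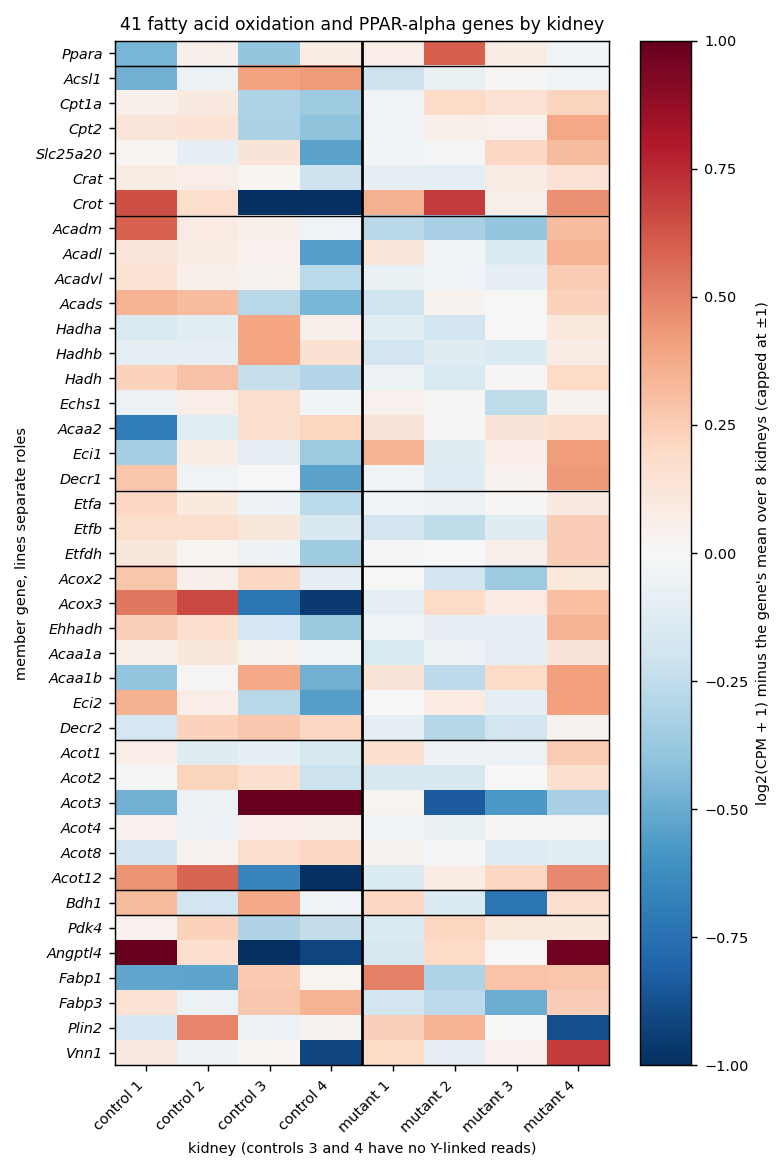
Heat map of the 41 members (rows, horizontal lines between roles) in the 8 kidneys (columns, a vertical line between genotypes), coloured by log2(CPM + 1) minus the gene's mean over 8 kidneys and capped at ±1. *Crot*, *Acox3*, *Acot12* and *Angptl4* are blue and *Acot3* dark red in controls 3 and 4, and most rows are red in SIK mutant 4.

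By genotype, no member differed past an FDR of 0.05. The edgeR quasi-likelihood test with Benjamini-Hochberg adjustment called 0 of 41 members and 0% of all genes over 8 kidneys. DESeq2 called 0 members, beside 71 of all genes, and limma-trend 0 members, beside 4 of all genes. At an unadjusted threshold of 0.05, edgeR passed 3 members, 1 higher and 2 lower, DESeq2 passed 2, beside 980 of all genes, and limma-trend on TPM passed 7, all higher, on a scale where the median of all genes lay at 0.088 log2 and 1020 genes passed in the higher and 164 in the lower direction. The 3 edgeR members were *Eci1* in the higher direction and *Decr2* and *Acot3* in the lower, beside 6.36% of all genes (2.76% higher and 3.59% lower), so the members' share was near the background. The median log2 difference of the members, mutant minus control, was 0.03, against -0.004 for all genes, and 18 of 41 were below 0. Control and mutant values overlapped for every member, against 4.03% of all genes with no overlap. In bulk tissue, fewer cells of a type and less RNA per cell cannot be told apart.

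*Acot3*, on chromosome 12 (84052144 to 84060402 in GRCm38), encodes an acyl-CoA thioesterase of the peroxisome and lies in a cluster with *Acot1*, *Acot2* and *Acot4*. It was at 14.4, 19.6, 49.9 and 41.8 CPM in controls 1 to 4 and at 20.9, 11.1, 13.4 and 16.2 CPM in mutants 1 to 4. The control mean of 31.4 ± 17.1 CPM (SD, n = 4) was set by controls 3 and 4, and the other 2 controls fell within the mutant range. Over 8 kidneys the log2 difference was -1.03 ± 0.38 (SE, adjusted p = 0.715), with an exact permutation p of 0.171, and over the 6 kidneys with Y-linked reads it was -0.13 ± 0.25 (adjusted p = 0.869). Reads shared with its neighbours were few, the posterior SD of the count being at most 1.47% of the count. Of the neighbours, *Acot1* differed by 0.16 log2 over 8 kidneys and 0.12 over 6, *Acot2* by -0.08 and -0.14, and *Acot4* by -0.06 and -0.01.

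*Eci1* encodes the mitochondrial isomerase that lets unsaturated chains enter the cycle. It was at 52.7, 69.9, 62.4 and 51.5 CPM in controls and at 84.9, 61.2, 69.8 and 89 CPM in mutants. SIK mutants 1 and 4 lay above every control, and SIK mutants 2 and 3 lay among the controls. Its log2 difference was 0.37 ± 0.14 (adjusted p = 0.742, exact permutation p = 0.143) and 0.32 ± 0.18 in the 6 kidneys (adjusted p = 0.53).

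*Decr2*, the peroxisomal 2,4-dienoyl-CoA reductase, was at 29.8, 39.9, 41 and 39.1 CPM in controls and at 31.6, 27.5, 29.7 and 34.6 CPM in mutants. Control 1 sat within the mutant range and the other 3 controls above it. The log2 difference was -0.28 ± 0.12 over 8 kidneys (adjusted p = 0.768, exact permutation p = 0.0857) and -0.17 ± 0.14 over 6 (adjusted p = 0.694). Its mitochondrial counterpart *Decr1* differed by 0.13 ± 0.18 over 8 and -0.03 ± 0.16 over 6.

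Over the 6 kidneys with Y-linked reads, 4 mutants against controls 1 and 2, edgeR again called 0 members, beside 0.143% of all genes. At the unadjusted threshold 5 members passed, *Acadm*, *Acads* and *Acox3* in the lower direction and *Acaa2* and *Fabp1* in the higher, beside 11.1% of all genes (6.4% higher and 4.74% lower). The median member lay at -0.04 log2, against 0.011 for all genes, with 27 of 41 below 0. Mutants and controls 1 and 2 had no overlap in 6 members, *Acads*, *Hadh*, *Etfa* and *Acox3* lower and *Acaa2* and *Fabp1* higher, beside 21.8% of all genes. Several marker lists moved with this contrast. All 7 white fat markers (*Adipoq*, *Plin1*, *Cidec*, *Lep*, *Cfd*, *Fabp4*, *Retn*) and all 4 brown fat markers (*Ucp1*, *Cidea*, *Cox8b*, *Otop1*) were lower in controls 1 and 2 than in every mutant. Their sums were 22.3 and 29.9 CPM (white) and 0 and 2.37 CPM (brown) in controls 1 and 2, against 166 to 262 and 14.9 to 83.2 CPM in mutants. The proximal tubule sum was lower in every mutant than in controls 1 and 2, *Slc34a1* being at 6321.4 and 6850.0 CPM in these controls and at 3942.6 to 5141.3 CPM in mutants. Every other marker of that list overlapped between these controls and the mutants. *Lrp2* was at 1464.7 and 1415.4 CPM against 1335.2 to 1800.8 CPM, and *Slc22a8* at 459 and 658 CPM against 639 to 886 CPM. The sum of 3 collecting duct markers was 394 and 295 CPM in controls 1 and 2 and 433 to 736 CPM in mutants, and *Ttr* was higher in every mutant as given above. The part of these in the values of the members was not tested.

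*Acox3* encodes a peroxisomal oxidase of branched-chain acyl-CoA and lies on chromosome 5 (35583040 to 35615352 in GRCm38). It was at 235, 258, 97.9 and 83.3 CPM in controls 1 to 4 and at 153, 187, 172 and 201 CPM in mutants. The mutants fell between the 2 pairs of controls, with no overlap on either side. Its log2 difference by genotype was 0.08 ± 0.34 over 8 kidneys (adjusted p = 0.986) and -0.46 ± 0.12 over 6 (adjusted p = 0.241). DESeq2 on the same 6 kidneys gave -0.47 with an adjusted p of 0.038, the one call for a member by genotype in any fit of these 6 kidneys, and with all 8 kidneys and a term for Y-linked reads it gave -0.47 with an adjusted p of 0.0377. Both of these DESeq2 fits were chosen after the data had been seen.

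*Acads*, short-chain acyl-CoA dehydrogenase, showed the same order of kidneys. It was at 184, 179, 119 and 105 CPM in controls and at 126, 148, 145 and 170 CPM in mutants. The log2 difference was 0.00 ± 0.19 over 8 kidneys (adjusted p = 0.997) and -0.29 ± 0.12 over 6 (adjusted p = 0.407).

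*Acadm* was at 1179.6, 830, 809 and 763 CPM in controls and at 645, 626, 597 and 968 CPM in mutants. SIK mutants 1 to 3 lay below every control, and SIK mutant 4 lay above controls 2, 3 and 4. The log2 difference was -0.34 ± 0.19 over 8 kidneys (adjusted p = 0.812, exact permutation p = 0.229) and -0.49 ± 0.21 over 6 (adjusted p = 0.438). The other dehydrogenases differed less, *Acadl* (long-chain) by 0.14 ± 0.16 over 8 kidneys and -0.00 ± 0.14 over 6, and *Acadvl* (very long-chain) by 0.03 ± 0.12 and -0.06 ± 0.12.

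*Acaa2*, the mitochondrial thiolase of the last step, was at 134, 203, 244 and 254 CPM in controls and at 238, 220, 238 and 244 CPM in mutants. Controls 1 and 2 were the lowest kidneys. The log2 difference was 0.17 ± 0.18 over 8 kidneys (adjusted p = 0.915) and 0.49 ± 0.16 over 6 (adjusted p = 0.339). *Fabp1*, the liver-type fatty acid-binding protein, was at 0.406, 0.395, 1.41 and 1.05 CPM in controls and at 1.85, 0.624, 1.45 and 1.44 CPM in mutants. Its difference over 6 kidneys, 1.73 ± 0.57 log2 (adjusted p = 0.347), rests on 4 counts in each of controls 1 and 2 and 7 to 21 counts in mutants.

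**Figure D3:**
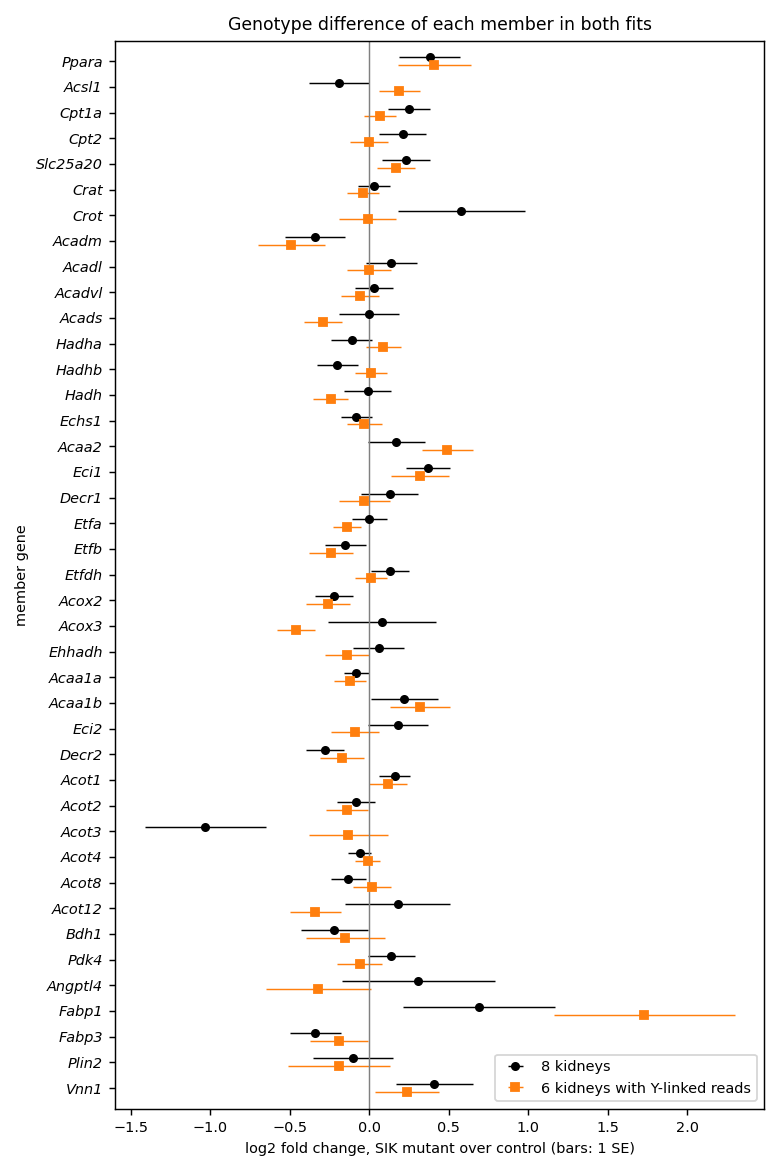
Log2 fold change of each member, SIK mutant over control, over 8 kidneys (black circles) and over the 6 kidneys with Y-linked reads (orange squares), with bars of 1 SE. *Acot3* moves from -1.03 to -0.13 and *Crot* from 0.58 to -0.01 between the fits, *Acox3* from 0.08 to -0.46, while *Ppara* stays at 0.38 and 0.41.

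The 33 remaining members differed by -0.34 to 0.58 log2 over 8 kidneys, with adjusted p of 0.784 to 0.998, and by -0.34 to 0.41 log2 over 6, with adjusted p of 0.476 to 0.996. Of all 41 members, 17 had opposite signs over 8 and over 6 kidneys. Where 2 differences follow each other below, the first is over 8 kidneys and the second over 6. The regulator *Ppara* was at 8.42, 12.4, 8.89 and 12.6 CPM in controls and at 12.5, 18.5, 12.6 and 11.7 CPM in mutants, a log2 difference of 0.38 ± 0.19 (adjusted p = 0.794, exact permutation p = 0.2) that was 0.41 ± 0.23 over 6 kidneys (adjusted p = 0.543). SIK mutant 2 was its highest kidney, and the other mutants lay among the controls. Of the 6 genes of activation and the carnitine shuttle, 5 were above 0 over 8 kidneys and 3 over 6. *Cpt1a*, the outer membrane transferase that admits fatty acids to mitochondria, differed by 0.25 ± 0.13 and 0.07 ± 0.10, and *Slc25a20*, the acylcarnitine carrier, by 0.23 ± 0.15 and 0.17 ± 0.12. *Cpt2*, the inner membrane transferase, differed by 0.21 ± 0.15 and -0.00 ± 0.12. Of the subunits of the trifunctional protein, *Hadha* differed by -0.11 ± 0.13 and 0.09 ± 0.11 and *Hadhb* by -0.20 ± 0.13 and 0.01 ± 0.10, and *Echs1*, the short-chain hydratase, differed by -0.08 ± 0.10 and -0.03 ± 0.11.

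The electron transfer genes *Etfa*, *Etfb* and *Etfdh* differed by -0.15 to 0.13 log2 over 8 kidneys and by -0.24 to 0.01 over 6. Among peroxisomal enzymes, *Ehhadh* differed by 0.06 ± 0.16 and -0.14 ± 0.14, *Acox2*, an oxidase of bile acid precursors, by -0.22 ± 0.12 and -0.26 ± 0.14, and the isomerase *Eci2* by 0.18 ± 0.19 and -0.09 ± 0.15. The thiolases *Acaa1a* and *Acaa1b* are close relatives on chromosome 9 whose shared reads put at most 0.995% SD on a count. *Acaa1a* differed by -0.08 ± 0.08 and -0.12 ± 0.10, and *Acaa1b* by 0.22 ± 0.21 and 0.32 ± 0.19. The peroxisomal thioesterase *Acot8* differed by -0.13 ± 0.11 and 0.02 ± 0.12. *Bdh1*, which interconverts ketone bodies, differed by -0.22 ± 0.21 and -0.15 ± 0.25. Of further PPAR-alpha targets, *Vnn1*, a pantetheinase, differed by 0.41 ± 0.24 and 0.24 ± 0.20, and *Pdk4* by 0.14 ± 0.15 and -0.06 ± 0.14. *Plin2*, which coats lipid droplets, differed by -0.10 ± 0.25 and -0.19 ± 0.32, and *Fabp3*, another fatty acid-binding protein, by -0.34 ± 0.16 (exact permutation p = 0.0857) and -0.19 ± 0.18.

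Larger differences lay within the control group. With genotype in the model, the edgeR test for kidneys without Y-linked reads called 8 of 41 members at an FDR of 0.05, beside 8.26% of all genes. Of these, 6 were lower in controls 3 and 4 (*Crot*, *Acox3*, *Acot12*, *Acads*, *Hadh*, *Angptl4*) and 2 higher (*Acot3*, *Acsl1*), against 5.09% and 3.18% of all genes. By limma-trend on TPM, a scale on which the median of all genes lay at 0.184 log2, 9 members were called, 5 higher and 4 lower, beside 554 genes higher and 268 lower. The median member lay at -0.16 log2, with 0.009 for all genes, and 27 of 41 were below 0. Controls 3 and 4 fell outside the range of the other 6 kidneys in 19 members, 12 lower and 7 higher, beside 23.8% of all genes. Since all mutants had Y-linked reads and genotype was in the model, these differences are those of controls 3 and 4 against controls 1 and 2. The mutants inform the spread, so the tests rest on 2 kidneys against 2. Other differences between the pairs of controls go with them. White fat markers summed to 219 and 67.1 CPM in controls 3 and 4, more than the 22.3 and 29.9 CPM in controls 1 and 2, and 6 of the 7 white fat markers were higher by the same test. In mutants these markers summed to 166 to 262 CPM, so controls 3 and 4 were not above the mutants. Of the S3 proximal tubule markers, *Slc7a13* was at 2.29 and 2.28 CPM in controls 3 and 4 and at 363 to 652 CPM in the others, and *Cyp7b1* likewise at 2.2 and 2.01 CPM against 16.8 to 295 CPM. *Slc22a13* went the other way, at 169 and 147 CPM against 85.9 to 118 CPM (log2 difference 0.60, adjusted p = 0.0605). *Slc5a1* was not lower either (0.18, adjusted p = 0.419). *Slc22a6*, an organic anion transporter, was at 415 and 429 CPM in controls 3 and 4 and at 881 to 1523.1 CPM in the others (adjusted p = 0.00117). It was the only 1 of the 8 proximal tubule markers to pass. Of the rest, *Slc34a1* (-0.57 log2), *Slc27a2* (-0.48) and *Slc13a3* (-0.13) lay below 0. *Slc22a8* (0.37), *Lrp2* (0.22), *Cubn* (0.22) and *Slc5a12* (0.06) lay above 0. *Ttr* was lower (19.8 and 45.1 CPM against 92.6 to 499, adjusted p = 0.0116) and *Alb* higher (9.69 and 8.58 CPM against 3.45 to 5.74, adjusted p = 0.0118). The part of these in the values below was not tested.

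**Figure D4:**
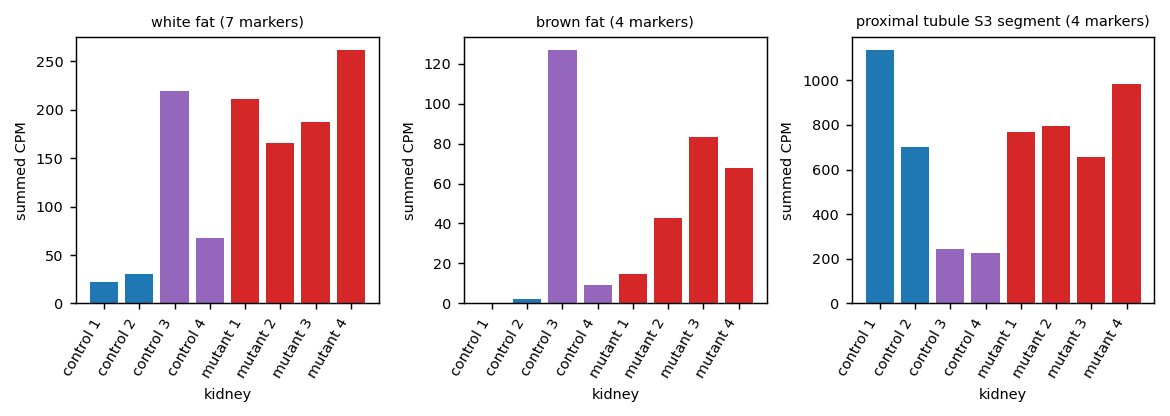
Summed CPM of the white fat, brown fat and S3 proximal tubule markers in each kidney (blue, controls 1 and 2, purple, controls 3 and 4, red, SIK mutants). White fat markers are lowest in controls 1 and 2, at 22.3 and 29.9 CPM, and the S3 sum is lowest in controls 3 and 4, at 246 and 226 CPM. Within that sum *Slc7a13* and *Cyp7b1* are lower in controls 3 and 4, and *Slc22a13* is higher.

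*Crot* encodes the carnitine octanoyltransferase of peroxisomes, which readies shortened chains for export to mitochondria, and lies on chromosome 5 (8966033 to 8997324 in GRCm38). It was at 443 and 320 CPM in controls 1 and 2, at 125 and 120 CPM in controls 3 and 4, and at 361, 459, 294 and 389 CPM in mutants. The pair without Y-linked reads was 3.11-fold below controls 1 and 2 on average and below every other kidney, and the mutants spanned the values of controls 1 and 2. The log2 difference was -1.64 ± 0.21 (edgeR adjusted p = 0.00226). With the replicate number as a block the adjusted p was 0.0585.

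For *Acox3*, with the values given above, the log2 difference by Y-linked reads was -1.44 ± 0.14 (adjusted p = 0.000646), the lowest p among the members. *Acads* fell by 0.70 ± 0.13 on the log2 scale (adjusted p = 0.0147), a call lost without any 1 of the 4 controls (adjusted p = 0.0577 to 0.121), by limma-trend (0.0725) and with the replicate block (0.0621). Every mutant lay between the pairs of controls in 4 members, these and *Hadh* and *Acaa2*, beside 4.21% of all genes.

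*Acot12*, a cytosolic thioesterase that releases acetate from acetyl-CoA, lies on chromosome 13 (91741512 to 91786148 in GRCm38). It was at 134 and 147 CPM in controls 1 and 2, at 61.5 and 48.5 CPM in controls 3 and 4, and at 88.9, 103, 113 and 137 CPM in mutants. Controls 3 and 4 were the lowest kidneys, 2.55-fold below controls 1 and 2, and 3 of the mutants lay between. The log2 difference was -1.35 ± 0.19 (adjusted p = 0.0037).

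*Acot3* went the other way, 2.7-fold higher in controls 3 and 4 than in controls 1 and 2 (log2 difference 1.43 ± 0.26, adjusted p = 0.012). Its neighbours did not pass, with *Acot1* at -0.10 ± 0.13, *Acot2* at -0.13 ± 0.17 and *Acot4* at 0.07 ± 0.09, and the difference between *Acot3* and its neighbours was not tested. The call of *Acot3* was lost without control 1 (adjusted p = 0.119) or control 3 (0.0796) and with the replicate block (0.101).

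A further 3 members were called. *Acsl1*, a long-chain acyl-CoA synthetase, was at 207, 278, 383 and 388 CPM in controls and at 251 to 291 CPM in mutants, 1.59-fold higher in controls 3 and 4 (log2 difference 0.67 ± 0.14, adjusted p = 0.0209). *Hadh* was at 500, 522, 364 and 348 CPM in controls and at 411, 383, 431 and 491 CPM in mutants (log2 difference -0.52 ± 0.13, adjusted p = 0.0343). *Angptl4* was at 45.8, 25.2, 8.81 and 11.4 CPM in controls and at 19.9, 25.9, 22.3 and 44.6 CPM in mutants (log2 difference -1.81 ± 0.41, adjusted p = 0.0261). In all 3, controls 3 and 4 lay outside the other 6 kidneys. The call of *Hadh* was lost without any 1 of the 4 controls (adjusted p = 0.13 to 0.183), by limma-trend (0.0934) and with the replicate block (0.0803). Without control 1, 3 or 4 the calls of *Acsl1* (adjusted p = 0.0941 to 0.15) and *Angptl4* (0.105 to 0.182) were lost, and that of *Acsl1* also with the block (0.142).

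**Figure D5:**
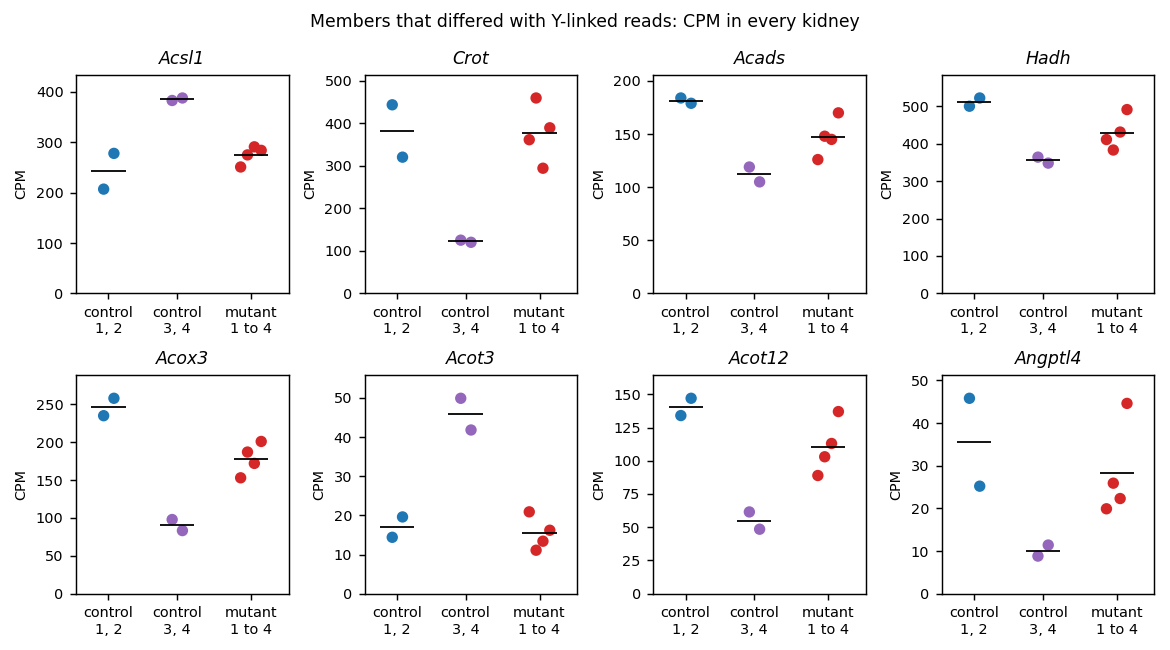
CPM of the 8 members called by Y-linked reads in every kidney, with a horizontal line at the mean of controls 1 and 2 (blue), controls 3 and 4 (purple) and SIK mutants (red), axes starting at 0. The purple points lie apart from the blue and red ones in each panel.

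Among the 33 members not called, differences by Y-linked reads ran from -0.63 (*Eci2*) to 1.59 log2 (*Fabp1*), and the lowest adjusted p values were 0.0552 for *Cpt1a* (-0.40 ± 0.11), 0.0565 for *Eci2* (-0.63 ± 0.18) and 0.0575 for *Cpt2* (-0.49 ± 0.14). Over all 41 members, 5 of 6 in activation and the carnitine shuttle were below 0, 7 of 11 in the mitochondrial cycle and 3 of 3 in electron transfer. Among peroxisomal enzymes it was 5 of 7, among thioesterases 3 of 6, among other PPAR-alpha targets 4 of 6 and for ketone bodies 0 of 1. Of all genes, 7017 of 14326 were below 0. *Hadha* and *Hadhb*, which are transcribed from adjoining genes, were both above 0, at 0.36 ± 0.14 and 0.37 ± 0.12 (adjusted p = 0.141 and 0.0926). *Ppara* itself was at 0.04 ± 0.28 (adjusted p = 0.945). Both comparisons share the controls, and the differences of the 8 called members by genotype over 6 kidneys were 0.19 (*Acsl1*), -0.01 (*Crot*), -0.29 (*Acads*), -0.24 (*Hadh*), -0.46 (*Acox3*), -0.13 (*Acot3*), -0.34 (*Acot12*) and -0.32 log2 (*Angptl4*).

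Other genes of the pathway were followed through a list of 56, of which 53 were tested. By genotype over 8 kidneys 0 were called by edgeR, and 5 passed the unadjusted threshold, 1 higher and 4 lower, beside 6.36% of all genes (2.76% higher and 3.59% lower). The 4 lower genes were *Hacl1* (log2 difference -1.28 ± 0.42, edgeR adjusted p = 0.702), *Acsm1* (-0.75 ± 0.23, 0.638), *Acad9* (-0.35 ± 0.14, 0.757) and *Acad12* (-0.25 ± 0.10, 0.742). The higher gene was *Pex11a*, a PPAR-alpha target that helps peroxisomes divide. It was at 33.6, 36.3, 31.7 and 28.5 CPM in controls and at 38, 36.3, 41.5 and 50.4 CPM in mutants. Its log2 difference was 0.35 ± 0.12 over 8 kidneys (adjusted p = 0.702) and 0.26 ± 0.14 over 6 (adjusted p = 0.528). Over 6 kidneys 19 of the 53 passed the unadjusted threshold, 7 higher and 12 lower, beside 11.1% of all genes. Of the 53, 1 was called by edgeR, beside 0.143% of all genes. DESeq2 on the same 6 kidneys, a fit chosen after the data had been seen, called 4, beside 185 of all genes. The edgeR call was *Plin4*, a lipid droplet protein abundant in fat cells, at 0.913 and 0.889 CPM in controls 1 and 2 and 5.13 to 6.06 CPM in mutants (log2 difference 2.61 ± 0.26, adjusted p = 0.0118), and its values follow those of the fat markers above. By Y-linked reads 14 of the 53 were called, 6 higher and 8 lower, beside 8.26% of all genes (3.18% higher and 5.09% lower), and the median was -0.21 log2. With the replicate block 7 of the 53 were called, beside 476 of all genes. Fewer of the 53, and fewer of all genes, were also called without any 1 of the controls, where a pair is left with 1 kidney. *Acsm3*, a medium-chain acyl-CoA synthetase, was at 8.01 and 5.17 CPM in controls 3 and 4 and 446 to 1306 CPM elsewhere (log2 difference -7.24 ± 0.48, adjusted p = 5.52e-05), and *Cyp4a12a*, a fatty acid omega-hydroxylase, fell by 7.42 ± 1.03 on that scale (adjusted p = 0.00339). *Cd36*, a fatty acid transporter, fell by 2.51 ± 0.34 (adjusted p = 0.00308), whereas *Cyp4a14*, another omega-hydroxylase and PPAR-alpha target, was at 442 and 267 CPM in controls 3 and 4 and at 8.63 to 118 CPM in the others (log2 difference 4.22 ± 0.59, adjusted p = 0.00342).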

How the data were processed

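RNA was extracted from whole kidneys with TRIzol and sequenced on a BGISEQ-500 instrument. Per the labels, STAR 2.7.2b, RSEM 1.3.0, FastQC and DESeq2 were used with build mm10, and strand is not given in the sources used here. For each kidney the authors deposited RSEM expected counts per gene, which are not normalised, and TPM, abundances scaled to length and library. The posterior SD of each count and the effective length, also deposited, are RSEM's. Of 55401 genes, 55141 matched GENCODE M21 (GRCm38) once versions were removed.

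Rounded expected counts were tested with edgeR 4.0.16 (R 4.3.3, quasi-likelihood, TMM, filterByExpr, legacy = TRUE, Benjamini-Hochberg over all genes tested), and a call was an FDR under 0.05. CPM of single genes were also tested by a two-sided exact permutation over 70 assignments, whose smallest p is 0.0286. Kidneys without Y-linked reads had under 3 counts of each of *Ddx3y*, *Eif2s3y*, *Kdm5d* and *Uty*. They were tested over all kidneys with genotype in the model, which sets them against the controls with Y-linked reads. Alternatives were RLE factors, DESeq2 1.42.0, no filter (1 count in any kidney), limma-trend (limma 3.58.1) on log2(TPM + 1), the replicate number as a block, 6 kidneys, a Y-linked term, the 4 controls alone and the removal of each kidney. The fits were tested on simulated data.

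The members, lists and tests were chosen with earlier results of these data known. By rule, members were given kidney by kidney where they passed an unadjusted threshold of 0.05 by genotype over 8 or 6 kidneys, did not overlap between groups, or had 1 of the 5 lowest p by Y-linked reads. *Acsl1*, *Hadh*, *Angptl4* and *Ppara* and the genes named from the pathway list were added after their values were seen. Depth was 10179648 to 10925100 expected counts, so 3 counts correspond to 0.263 to 0.304 CPM with TMM factors, which covers counting error only. No pair of kidneys of a group was a duplicate (chi-square per degree of freedom at least 9.44).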

Additional observations from a re-analysis of the deposited data

Results flagged for a closer look

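Within the groups of 4 kidneys, 8 of the 82 member and group combinations had 1 kidney far from the other 3, where chance alone gives about 1 in 20 (4.1 of 82). The gap to the nearest kidney, as a share of the group's range, was 0.869 for *Acadm*, 0.834 for *Acadvl* and 0.909 for *Ehhadh*, each with SIK mutant 4 highest. It was 0.873 for *Ppara* with SIK mutant 2 highest and 0.884 for *Echs1* with SIK mutant 3 lowest. Among controls it was 0.839 for *Acadm* with control 1 highest, 0.859 for *Acadl* with control 4 lowest and 0.83 for *Decr2* with control 1 lowest. The cause of these gaps was not tested.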

How the results depend on the processing

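By genotype, edgeR called 0 genes in all, DESeq2 71, the fit with no filter 9, limma-trend 4, the 6 kidneys 21, the Y-linked term 1, and leaving out 1 kidney 0 to 1. DESeq2 on 6 kidneys called 185 genes and with the Y-linked term 200, in each case 1 member (*Acox3*), against 0 members in every other fit, including each kidney left out (0 to 0). Members past the unadjusted threshold numbered 3, 7 by limma-trend, 5 in 6 kidneys, 6 with the Y-linked term, 7 in both added DESeq2 fits, and 1 to 6 with a kidney left out (6 without control 1 or SIK mutant 4, 1 without control 4 or SIK mutant 1, 2 or 3). Of all genes, 911 passed, 1184 by limma-trend, 1640 in 6 kidneys and 1764 with the Y-linked term. The added DESeq2 fits passed 1333 genes in 6 kidneys and 1474 with the term, and fits with a kidney left out 593 to 1181. Members below 0 numbered 18, 10 by limma-trend, 28 with the Y-linked term under edgeR and DESeq2, and 15 to 25 with a kidney left out. Their median stayed between -0.05 and 0.11 log2 with a kidney left out.

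From 8 to 6 kidneys 17 of 41 members turned sign by edgeR, and 18 with the Y-linked term. For the 6 of these followed under each alternative, the values in the order 6 kidneys, Y-linked term, DESeq2 on 6 kidneys and DESeq2 with the term were 0.19, 0.18, 0.19 and 0.19 for *Acsl1*, -0.01, -0.02, -0.02 and -0.02 for *Crot*, -0.29, -0.30, -0.30 and -0.30 for *Acads*, -0.46, -0.47, -0.47 and -0.47 for *Acox3*, -0.34, -0.35, -0.34 and -0.34 for *Acot12*, and -0.32, -0.33, -0.33 and -0.33 for *Angptl4*. *Hadh* turned to 0.11 by limma-trend. With a kidney left out, *Acads* ran from -0.13 to 0.13, *Hadh* from -0.11 to 0.09, *Acox3* from -0.14 to 0.36, *Acot12* from -0.04 to 0.44 and *Angptl4* from -0.00 to 0.90. None of these passed by edgeR.

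By Y-linked reads, 1184 genes and 8 members were called, 1463 genes and 13 members by DESeq2, and 265 to 1367 genes and 3 to 11 members with a kidney left out. Calls of members fell to 3 without control 1, 3 without control 3 and 4 without control 4, where a pair is left with 1 kidney assumed to vary like the others. *Crot*, *Acox3* and *Acot12* were called in each of these. The members' median was -0.34 to -0.05 log2 with a kidney left out. It was 0.03 by limma-trend on TPM, where the median of all genes lay at 0.184, so the members were below it there too. *Ppara* ran from -0.23 to 0.35.

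Same-numbered kidneys did not deviate together (correlations -0.193, 0.0425, 0.0632 and -0.344, and 1 of 4 controls closest to its own number). This check gave no sign of pairing by number. It cannot exclude pairing, because the deviations of controls include the split by Y-linked reads, which mutants lack. With the replicate block, 0 genes and 0 members were called by genotype and *Hadh* was at 0.00, and by Y-linked reads 476 genes and 3 members (*Acox3*, *Acot12* and *Angptl4*) were called with a median of -0.37 log2. The cause of these shifts was not tested. Counts as low as those of *Fabp1* limit its precision.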
